A study of Mus musculus with 6 samples.

Results

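Macrophages (MPs) owe their identity to a small set of transcription factors and to the receptor for their growth factor. Described here are 9 such genes out of 13008 in the expression table: Spi1, Cebpa, Cebpb, Irf8, Maf, Runx1, Nfix and Bach1, which encode transcription factors, and Csf1r, which encodes the lineage receptor. They were chosen by name, as genes of the macrophage lineage and of muscle repair, and all 9 were listed in the table. Their values in every sample, their order of abundance, and the genes around them were compared between Control and Cripto KO MPs.

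RNA-seq was performed on MPs sorted by flow cytometry as F4/80+/Ly6CLow cells from skeletal muscle on day 5 after cardiotoxin, a toxin that destroys muscle fibers and starts regeneration. The 3 Control samples are labelled wild type and the 3 Cripto KO samples Tg:LysMCre::Cripto-/-, in each case from male C57BL/6J mice 3 months old. In the KO line the floxed Cripto gene is removed by Cre under lysozyme M control, which acts in the myeloid lineage at large and need not recombine in every cell. In the study's account, both groups carried LysMCre and the R26mTmG reporter, which differs from the label of the Control samples, and the sort was also on GFP, which that reporter turns on in cells where Cre has acted. The study calls the samples of a group biological replicates. The labels do not say whether they came from separate mice, and p-values measure the spread between these samples.

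PU.1 (from Spi1), C/EBPα and RUNX1 set up the myeloid program in blood progenitors, and IRF8 directs progenitors towards monocytes. CSF1R, a receptor tyrosine kinase for CSF1 and IL-34, keeps monocytes and MPs alive, and its gene is itself a target of PU.1 and RUNX1. In injured muscle, C/EBPβ is required in MPs for expression of anti-inflammatory genes and for fiber repair, NFIX for the switch from the pro- to the anti-inflammatory phenotype, and c-MAF for IL-10 and other genes of anti-inflammatory MPs. BACH1 is a heme-sensing repressor of heme oxygenase and of other antioxidant genes.

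Recovered reads summed to 12688968 to 14141773 in Control against 14633880 to 15659847 in Cripto KO samples, where 3 reads correspond to a normalized value of 0.222 to 0.286. A normalized value is a gene's reads, plus 0.5, per 1000000 of a normalized library size. The Control libraries were not alike. Xist was 171 in Control replicate 1 and at most 0.885 in the other 5 samples, although all mice are labelled male. Lyz2 was 11066 in Control replicate 2, but 25.2 and 21.4 in Control replicates 1 and 3. The latter lay in the range of the Cripto KO samples, 21.2 to 28.3, although all Control samples share the wild type label. The cause was not tested. The deleted gene itself (Tdgf1) was not analysed here and gives no check of the labels. All 14 listed markers of macrophages were present, with a summed value of 19399 to 19559 in Control against 17708 to 19552 in Cripto KO samples, and Adgre1, which encodes F4/80, was between 1065 and 1384. Of the 14, 10 had a log2 fold change above 0 and 4 below 0, where 52.6% of all genes were above 0. An unadjusted p under 0.05 was found for 1 of the 14, against 8.59% of all genes. Ptprc, Aif1 and Laptm5 had the smallest p, with log2 fold changes of 0.18, 0.16 and 0.17, and Sirpa had the lowest fold change of the list, at -0.16, with groups that did not overlap. Summed values were 1.67 to 4.31 over 7 neutrophil markers, of which Retnlg, Ngp, Camp and S100a9 were at 3 reads or fewer in every sample, and the B cell marker Cd79a was at 2 reads or fewer. They were 10.5 to 13.6 over 7 dendritic cell markers and 106 to 146 over 8 markers of Ly6C-high monocytes.

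None of the 9 genes passed the limma test between Control and Cripto KO MPs once p-values were adjusted over all genes. The adjusted p-values went from 0.50 for Nfix to 0.99 for Spi1, and 0 of the 9 genes were called, against 0.131% of all genes. DESeq2 and edgeR on the recovered reads also called 0 of the 9. At an unadjusted p under 0.05, 1 of the 9 genes (Nfix) was below the threshold, against 8.59% of all genes. Nfix was also the 1 gene of the 9 without overlap between the groups, against 14.5% of all genes. Of the 9 genes, 1 (Nfix) lay higher in Control without overlap, against 8.02% of all genes, and 0 lay lower without overlap, against 6.43% of all genes. Fold changes on the log2 scale are Control over Cripto KO, and are positive where Control was higher. They were above 0 for 8 of the 9 genes, as for 52.6% of all genes, with a median of 0.06 against 0.01 over all genes. The count of 8 was 4 after quantile normalization, 7 with edgeR, DESeq2 or voom, and 5 to 8 when 1 sample was left out, with 5 without Cripto KO replicate 3. Their median absolute size was 0.06, against 0.12 over all genes and 0.09 over the 7730 genes with a mean value of at least 10. With bulk RNA, fewer cells that express a gene and less RNA per cell cannot be told apart.

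**Figure D1:**
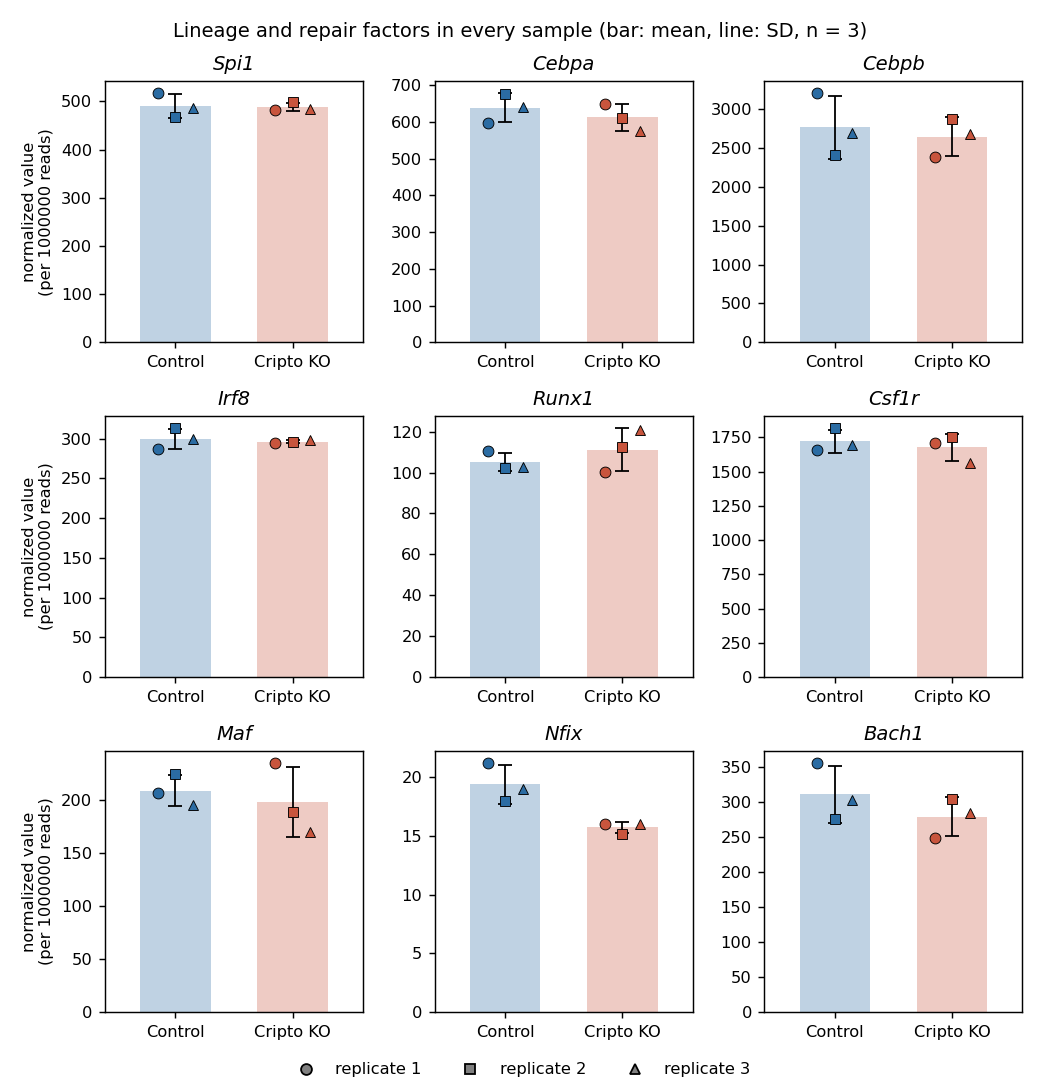
Normalized value (per 1000000 reads, linear axis from 0) of the 9 genes in each sample, with Control in blue and Cripto KO in red; bars are means, lines are SD (n = 3), and marker shapes give the replicate. The groups overlap in every panel but that of Nfix, where the lowest Control sample is at 18.0 and the highest Cripto KO sample at 16.0.

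Spi1 (ENSMUSG00000002111, chromosome 2 from 91082390 to 91115756 on the plus strand, GRCm38) encodes PU.1, the ETS factor that opens myeloid enhancers. Its normalized value was 516, 467 and 485 in Control replicates 1, 2 and 3 and 481, 498 and 485 in Cripto KO replicates 1, 2 and 3. The Cripto KO samples all lay inside the range of the Control samples, with means of 489.6 ± 24.7 (SD, n = 3) and 488 ± 8.5 (SD, n = 3). On the log2 scale the difference was 0.00 (95% interval -0.14 to 0.15, limma, adjusted p = 0.99), and its sign changed with the scaling, to -0.06 after quantile normalization. Fold differences in either direction beyond 1.11 fell outside the interval.

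Cebpa (ENSMUSG00000034957, chromosome 7 from 35119293 to 35121928, plus strand) encodes C/EBPα, which acts with PU.1 on myeloid promoters. Control samples were at 598, 676 and 641 and Cripto KO samples at 648, 611 and 576.5. The groups overlapped, with the highest value in Control replicate 2 and the lowest in Cripto KO replicate 3. The estimated log2 difference was 0.06 (95% interval -0.11 to 0.23, limma, adjusted p = 0.86). Quantile normalization gave 0.00, and the estimate was 0.02 without Control replicate 2 and also without Cripto KO replicate 3.

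Irf8 (ENSMUSG00000041515, chromosome 8 from 120736358 to 120756694, plus strand) varied least among the 9 genes. It was 287, 313 and 299 in Control against 295, 296 and 298 in Cripto KO samples, with a within-group SD of 0.04 on the log2 scale against a median of 0.12 over genes with a mean value of at least 10. All 3 Cripto KO samples lay between the lowest and the highest Control sample. Its log2 fold change was 0.02 (95% interval -0.12 to 0.15, limma, adjusted p = 0.96). Quantile normalization gave -0.04. Without Control replicate 1, the library with high Xist, the groups no longer overlapped for Irf8, as was then the case for 28.1% of all genes.

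Runx1 (ENSMUSG00000022952, chromosome 16 from 92601466 to 92826149, minus strand) was the 1 gene of the 9 with a log2 fold change below 0. RUNX1 is needed for blood stem cells to form and works with CBFβ, its DNA-binding partner. Runx1 was 110.4, 102 and 103 in Control against 100.2, 112 and 121 in Cripto KO samples, so that Cripto KO replicate 1 was the lowest and replicate 3 the highest of the 6. On the log2 scale the difference was -0.08 (95% interval -0.26 to 0.11, limma, adjusted p = 0.83). Without Cripto KO replicate 1 it was -0.15 and the groups did not overlap, as for 24.3% of all genes, and without Cripto KO replicate 3 it was -0.01.

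Promoter windows of RefSeq (GRCm38.p6, from 250 bases before to 50 after an annotated start) were searched on both strands, and 6 of the 9 genes had an entry. The letters searched were GAGGAAGT for PU.1, TTGCGCAA for C/EBP, TGTGGT for RUNX, TGACNNNGC for the element of MAF and BACH1, GAAA and GGAA separated by any 2 bases for the composite element of IRF and ETS factors, and TTGGC and GCCAA separated by any 5 bases for NFI. The PU.1 and the composite letters share GGAA. A window of Runx1 held the composite letters, which occur in 2.8% of 32851 windows, starting 35 bases before the start, and the RUNX letters on the opposite strand (ACCACA) starting 28 and 36 bases after it. The RUNX letters occur in 16.8% of windows. Both stretches of Runx1 are shown because they place letters of RUNX, IRF and ETS factors at 1 start, with those letters in capitals, at chr16:92826090-92826119 and chr16:92826025-92826054 on the minus strand.
Runx1 composite: gtgggctgtgGAAAGGGGAAcagttaaatt
Runx1 paired words: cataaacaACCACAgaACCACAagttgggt
The windows of Cebpb and Irf8 each held the MAF and BACH1 letters, which occur in 12.4% of windows. The C/EBP letters (0.183% of windows), the NFI letters (0.0365%) and the PU.1 letters (3.2%) were not in the windows of these 6 genes. These shares are per window and not per gene, and a gene with several starts has several windows. A match shows only that the letters are present. The table gives 1 value per gene, so which start was used cannot be read from it.

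Csf1r (ENSMUSG00000024621, chromosome 18 from 61100598 to 61132149, plus strand) ranked next to Cebpb in level per kilobase. Control samples were at 1654, 1815 and 1692 and Cripto KO samples at 1708, 1754 and 1566. The highest value was in Control replicate 2 and the lowest in Cripto KO replicate 3, and the groups overlapped. The estimated log2 difference was 0.04 (95% interval -0.14 to 0.22, limma, adjusted p = 0.93), and it was -0.000921 without Control replicate 2, the library with high Lyz2. An exon of Hmgxb3 on the opposite strand overlaps Csf1r by 873 bases, with a mean value of 18.9, and reads there cannot be told apart without strand.

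Of 23 genes of CSF1R ligands and signaling, 22 were in the table. None passed at an adjusted p under 0.05, and 1 (Plcg2) had an unadjusted p under 0.05, with a higher value in Control, against 4.6% of all genes in that direction. Fold changes were above 0 for 20 of the 22, against 52.6% of all genes, with a median of 0.06 against 0.01 over all genes. How the count of 20 changes with the scaling is not given here. Plcg2, a phospholipase downstream of the receptor, was 89.3, 89.2 and 86.5 in Control against 79.5, 80.1 and 79.5 in Cripto KO samples. Its groups did not overlap, the log2 fold change was 0.15 and the adjusted p was 0.55 (limma). Inpp5d, which encodes the lipid phosphatase SHIP1, was 249, 232 and 253 in Control against 225, 219 and 223 in Cripto KO samples (log2 fold change 0.14, limma, adjusted p = 0.59). Lyn, a Src-family kinase, had a log2 fold change of 0.21 with overlapping groups, and of 0.115 without Control replicate 1. Csf1, the ligand, was low, at 10.5 to 13.2 in Control against 10.7 to 11.5 in Cripto KO samples. Tyrobp, the adaptor DAP12, was 1037 to 1163 in Control against 985 to 1072 in Cripto KO samples, and Syk, the kinase it recruits, was 387 to 507 and 336 to 451. For these 3 genes the groups overlapped.

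Cebpb (ENSMUSG00000056501, chromosome 2 from 167688915 to 167690418, plus strand) had the highest level per kilobase of the 9 genes. It was 3198.5, 2406 and 2689 in Control against 2381, 2872 and 2682 in Cripto KO samples. Control replicate 1 was the highest and Cripto KO replicate 1 the lowest sample, and the spread within groups (SD of 402 in Control against 247 in Cripto KO, n = 3) exceeded the difference of the means. Its log2 fold change was 0.06 (95% interval -0.22 to 0.33, limma, adjusted p = 0.93), and -0.05 without Control replicate 1. An exon of Tmem189, with a mean value of 364.5, overlaps Cebpb by 312 bases on the opposite strand. Per kilobase, the ratio of Cebpb to Cebpa within a sample was 9.37, 6.24 and 7.35 in Control against 6.44, 8.23 and 8.15 in Cripto KO samples, with means of 7.65 ± 1.59 (SD, n = 3) and 7.61 ± 1.01 (SD, n = 3). Cebpd, a paralog, was 41.6 to 43.2 in Control against 40.2 to 44.0 in Cripto KO samples.

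All 10 listed C/EBP targets were in the table, none passed at an adjusted p under 0.05, and 2 had an unadjusted p under 0.05 with higher values in Control, against 4.6% of all genes in that direction. The count was 1 without Control replicate 1 or Cripto KO replicate 3, and 3 without Cripto KO replicate 1. With the replicate block, and without Control replicate 1 or Cripto KO replicate 2, 1 target had an unadjusted p under 0.05 with lower values in Control. Ptgs2, which encodes the prostaglandin synthase COX-2, was 331, 317 and 324 in Control against 252, 243 and 246 in Cripto KO samples. Its groups lay well apart relative to their spread, with a log2 fold change of 0.39 (limma, adjusted p = 0.057). It passed with DESeq2 (adjusted p = 0.000429) and with robust eBayes in limma (adjusted p = 0.0369), and went from 0.000429 to 0.336 across alternatives. Saa3, an acute-phase protein, was low, at 5.48, 3.90 and 4.20 in Control against 2.44, 3.65 and 1.90 in Cripto KO samples. Arg1, the arginase of anti-inflammatory MPs, was 102, 64.1 and 75.0 in Control against 161, 80.2 and 91.2 in Cripto KO samples, with overlapping groups and a log2 fold change of -0.42 (limma, adjusted p = 0.69). Without Cripto KO replicate 1 it was -0.12, and without Control replicate 2 it was -0.27.

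Maf (ENSMUSG00000055435, chromosome 8 from 115682942 to 115707794, minus strand) varied most among the 9 genes, with a within-group SD of 0.18 on the log2 scale. Its values were 207, 225 and 196 in Control against 235, 189 and 170.4 in Cripto KO samples. Cripto KO replicate 1 was the highest of the 6 samples and Cripto KO replicate 3 the lowest. On the log2 scale the difference was 0.09 (95% interval -0.17 to 0.34, limma, adjusted p = 0.86). Without Cripto KO replicate 1 the difference was 0.22, with an unadjusted p of 0.0348 (limma, adjusted p = 0.622). The remaining values of Maf did not overlap, as was then the case for 24.3% of all genes. Leaving out Cripto KO replicate 3 gave -0.01. Exons of other annotated genes on the opposite strand overlap Cebpa by 51, Maf by 401 and Runx1 by 106 bases.

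All 12 genes linked to MAF were in the table and none passed at an adjusted p under 0.05. Of these, 1 (Lyve1) had an unadjusted p under 0.05 with lower values in Control, against 3.99% of all genes in that direction. Lyve1, a hyaluronan receptor of resident MPs, was 10.6, 14.0 and 11.1 in Control against 17.3, 14.0 and 14.0 in Cripto KO samples. Folr2, a folate receptor, was 484, 525 and 492 in Control against 458, 477 and 324 in Cripto KO samples, and its log2 fold change of 0.27 was 0.10 without Cripto KO replicate 3. Mrc1 (CD206) was 593, 602 and 575 in Control against 677, 647 and 616 in Cripto KO samples, with a log2 fold change of -0.13 (limma, adjusted p = 0.64). The groups overlapped for Lyve1. They did not for Folr2, higher in Control, or for Mrc1, lower in Control, against 8.02% and 6.43% of all genes in those directions. Fold changes of these 3 genes differed in sign, and the median over the list was -0.02.

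Nfix (ENSMUSG00000001911, chromosome 8 from 84699876 to 84800344, minus strand) had the lowest level per kilobase and the largest fold change of the 9 genes. It was 21.2, 18.0 and 19.0 in Control against 16.0, 15.2 and 16.0 in Cripto KO samples, from 214 to 287 reads per sample. Every Control sample was above every Cripto KO sample, with means of 19.4 ± 1.63 (SD, n = 3) and 15.7 ± 0.471 (SD, n = 3). The estimated log2 difference was 0.30 (standard error 0.10, 95% interval 0.06 to 0.53), or 1.23-fold. Its unadjusted p of 0.0184 did not hold over all genes (limma, adjusted p = 0.50). That unadjusted p was 0.0668 without Control replicate 1, where the log2 fold change was 0.23, and 0.0566 without Cripto KO replicate 2. DESeq2 gave 0.0567. Over all 17 alternatives the log2 fold change stayed between 0.23 and 0.35 and the adjusted p between 0.474 and 0.884. Exons of Lyl1 (mean value 63.2) and G430095P16Rik on the opposite strand overlap Nfix by 4 and 137 bases.

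A sort on GFP and F4/80 is meant to leave out fibroblasts, which can express Nfix. Summed over 7 genes, their markers were 462 to 484 in Control against 544 to 595 in Cripto KO samples. Most of this sum came from Col1a1, Col3a1 and Col1a2, with mean values of 213, 164 and 128.5. Dcn, Dpt, Lum and Pdgfra had mean values of 7.77, 4.05, 3.51 and 0.846. All 7 had a fold change below 0, where 52.6% of all genes were above 0, and 5 had an unadjusted p under 0.05, against 3.99% of all genes in that direction. The count was 3 with DESeq2 and without Control replicate 1, Cripto KO replicate 1 or Cripto KO replicate 3. Col3a1, Col1a1 and Col1a2, the fibrillar collagens, had log2 fold changes of -0.31, -0.25 and -0.23. Over 5 muscle markers the sum was 24.7 to 44.5 in Control against 16.3 to 41.7 in Cripto KO samples. Of these, Ckm, the muscle creatine kinase, was 14.1, 6.17 and 4.94 in Control against 7.40, 1.45 and 1.14 in Cripto KO samples. Tnnt3, a fast troponin, had a log2 fold change of 0.89 and Myog, the myogenic factor myogenin, one of -0.94. Over 5 endothelial markers the sum was 35.9 to 44.1 in Control against 34.4 to 40.6 in Cripto KO samples. Their part in the values of Nfix was not tested.

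No other NFI gene separated the groups. Nfia was 3.22 to 4.09 in Control against 4.00 to 4.10 in Cripto KO samples, Nfib 1.02 to 2.54 and 1.31 to 1.94, and Nfic 45.1 to 67.5 and 55.8 to 67.4. Of 9 genes of the RhoA-ROCK axis, which acts upstream of NFIX in MPs, none passed at an adjusted p under 0.05. Of these, 1 (Rock1) had an unadjusted p under 0.05 with higher values in Control, against 4.6% of all genes in that direction. Rock1, which encodes the kinase, was 46.3, 48.4 and 46.7 in Control against 36.9, 45.0 and 40.9 in Cripto KO samples (log2 fold change 0.21, limma, adjusted p = 0.56). Its groups did not overlap, as for 14.5% of all genes. Leaving out Cripto KO replicate 1 gave 0.14. Rhoa was 473 to 551 in Control against 472 to 504 in Cripto KO samples, and Limk1, a kinase downstream of ROCK, 12.1 to 15.8 and 14.0 to 16.5, both with overlapping groups.

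The RUNX letters were found in windows of 2 annotated starts of Nfix. These stretches are shown because Nfix was the 1 gene of the 9 whose groups did not overlap. The first is the 250 bases upstream of a start inside the gene (chr8:84772876-84773125, minus strand), with the letters in capitals starting 157 bases before the start on the opposite strand. The second is 30 bases across another start (chr8:84775809-84775838, minus strand), with the letters in capitals from 2 bases after it.
Nfix upstream: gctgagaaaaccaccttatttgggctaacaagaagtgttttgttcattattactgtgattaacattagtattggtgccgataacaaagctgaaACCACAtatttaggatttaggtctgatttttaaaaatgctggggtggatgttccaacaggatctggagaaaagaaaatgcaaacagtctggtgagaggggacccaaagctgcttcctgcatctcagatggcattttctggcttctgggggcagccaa
Nfix at a start: gcgagctcagtcTGTGGTgcctacctctac
These letters occur in 16.8% of all windows, and the share of genes with them in some window was not counted. Whether RUNX1 acts at these starts was not tested.

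Bach1 (ENSMUSG00000025612, chromosome 16 from 87698945 to 87733346, plus strand) had the second-largest fold change of the 9 genes. Its values were 355, 275 and 303 in Control against 249, 304 and 285 in Cripto KO samples. Control replicate 1 was the highest and Cripto KO replicate 1 the lowest sample, and the groups overlapped, as Cripto KO replicates 2 and 3 lay above Control replicate 2. Its log2 fold change was 0.15 (95% interval -0.09 to 0.39, limma, adjusted p = 0.73) and ranged from 0.05 to 0.24 when 1 sample was left out. Bach2, its paralog, was low but separated, at 9.46, 9.73 and 9.67 in Control against 6.76, 6.19 and 7.96 in Cripto KO samples. Its log2 fold change was 0.47 ± 0.14 (standard error; limma, adjusted p = 0.45), and its unadjusted p was under 0.05 in all 17 alternatives.

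**Figure D2:**
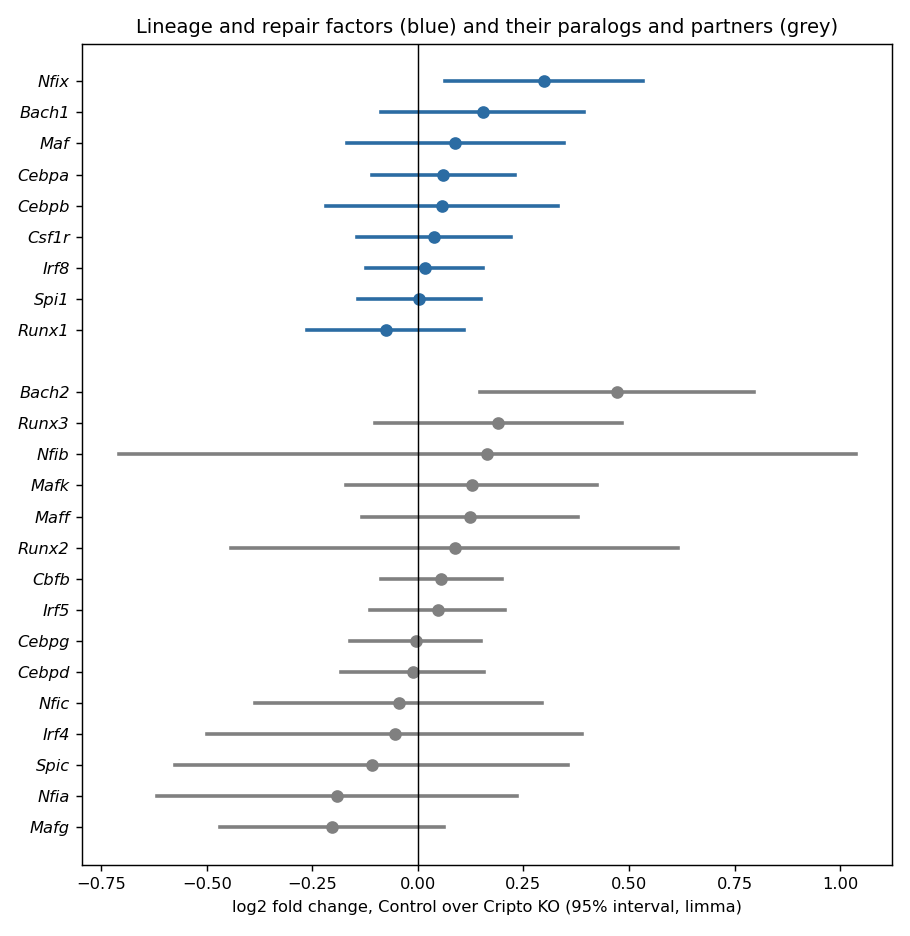
Log2 fold change (Control over Cripto KO) with its 95% interval from limma for the 9 genes (blue) and for those paralogs and partners with a mean value of at least 1 (grey). Among the 9 genes the interval lies above 0 for Nfix (0.06 to 0.53), and among the others for Bach2.

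Of 19 listed paralogs and partners, 17 were in the table, and none passed at an adjusted p under 0.05. Bach2 was the 1 with an unadjusted p under 0.05, against 8.59% of all genes. Fold changes were above 0 for 8 and below 0 for 9, with a median of -0.01. Mafg, a small MAF protein that pairs with BACH1, had a log2 fold change of -0.20 with overlapping groups, which was -0.33 (unadjusted p 0.0069, limma, adjusted p = 0.281) without Control replicate 1 and -0.08 without Control replicate 2. Mafk, another, was at 0.13 with overlapping groups, and went from 0.02 to 0.26 when 1 sample was left out. Runx3 was 73.7 to 107 in Control against 69.9 to 82.9 in Cripto KO samples, and its log2 fold change of 0.19 was 0.05 without Control replicate 1. Irf5, a factor of pro-inflammatory MPs, was 213 to 247 and 215 to 228, and Irf4 was 5.84 to 9.53 and 7.18 to 8.79.

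All 12 listed targets of BACH1 were in the table. None passed at an adjusted p under 0.05 in limma, while 4 had an unadjusted p under 0.05, all with lower values in Control, against 3.99% of all genes in that direction. This list too was chosen with earlier results of these data known, so the count is given as a description. Fold changes were below 0 for 9 of the 12 and above 0 for 3, where 52.6% of all genes were above 0, with a median over the list of -0.15. Hmox1, which encodes heme oxygenase 1, was 2557, 1734 and 2260.4 in Control against 3073, 3009 and 2942 in Cripto KO samples, a log2 fold change of -0.48 (limma, adjusted p = 0.42). Gclm, the modifier subunit of the enzyme that makes the glutathione precursor, was 69.1, 50.1 and 63.5 in Control against 92.7, 78.5 and 98.5 in Cripto KO samples (log2 fold change -0.57, limma, adjusted p = 0.29). The groups did not overlap for either gene. Both passed with DESeq2, with adjusted p of 0.014 for Hmox1 and 0.00432 for Gclm, and ranges over all alternatives of 0.014 to 0.833 and 0.00432 to 0.773. Gclc, the catalytic subunit, was 29.8, 19.9 and 25.8 in Control against 35.5, 30.3 and 37.4 in Cripto KO samples, also without overlap (log2 fold change -0.47, limma, adjusted p = 0.48). Slc40a1, the iron exporter ferroportin, was 75.4, 56.6 and 58.6 in Control against 131, 73.0 and 121 in Cripto KO samples, with overlap through Cripto KO replicate 2 (log2 fold change -0.74, limma, adjusted p = 0.42). Of the 12 genes, 4 to 6 were below the threshold with lower values in Control in each alternative, the 6 without Control replicate 1, and the median was -0.07 without Control replicate 2 or Control replicate 3. Txnrd1, a thioredoxin reductase, was 211 to 355 in Control against 227 to 310 in Cripto KO samples, with overlapping groups and a log2 fold change of 0.00 that went from -0.19 to 0.19 when 1 sample was left out. The sum over fibroblast markers was also higher in the Cripto KO samples, as given above with Nfix, and its part here was not tested. Whether BACH1 had a part in the values of these genes was not tested either.

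**Figure D3:**
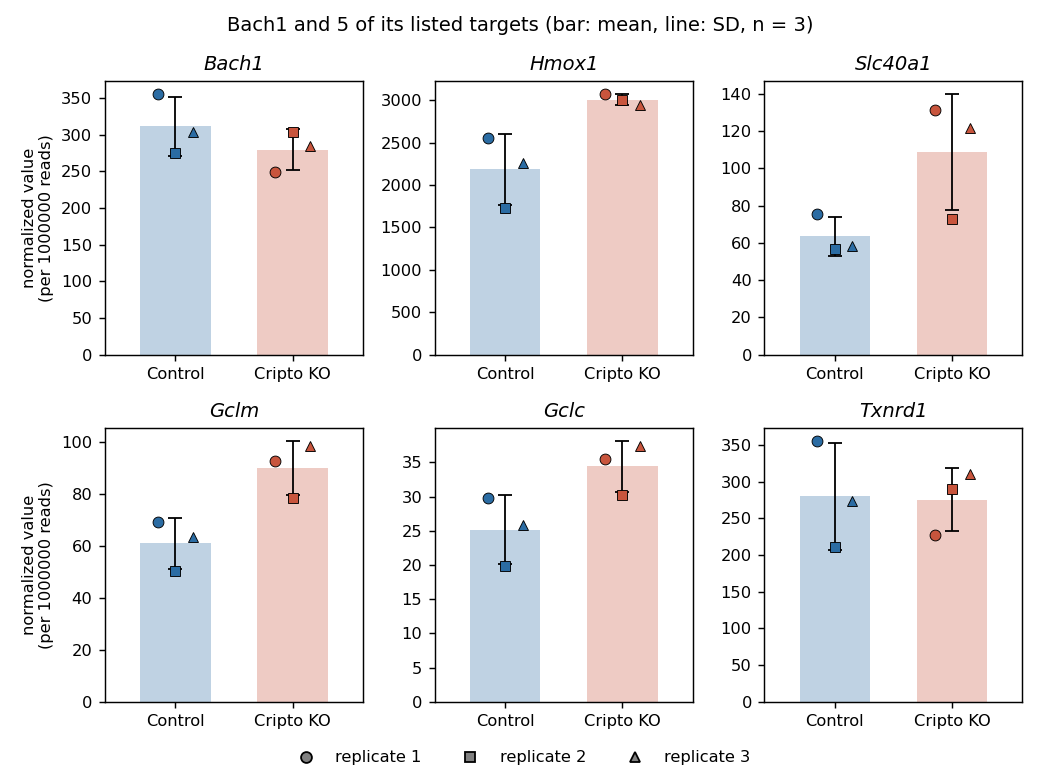
Normalized value (per 1000000 reads, linear axis from 0) of Bach1 and of 5 listed targets in each sample, with Control in blue and Cripto KO in red; bars are means, lines are SD (n = 3), and marker shapes give the replicate. Hmox1, Gclm and Gclc do not overlap between the groups and are lower in Control, whereas Bach1, Slc40a1 and Txnrd1 overlap. Gclc and Txnrd1 were named after their values had been seen.

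Targets of PU.1 and IRF8 were read out of the same test. Of 13 PU.1 targets none passed at an adjusted or an unadjusted p under 0.05, where 8.59% of all genes passed the unadjusted threshold. Their median log2 fold change was 0.08. Ncf1 and Cybb, subunits of the phagocyte oxidase, had log2 fold changes of 0.12 each, and Csf2ra, a receptor subunit for GM-CSF, one of -0.08. Of 10 IRF8 targets, which include Cybb, none passed at an adjusted p under 0.05 and 2 had an unadjusted p under 0.05, both with higher values in Control, against 4.6% of all genes, with a median of 0.11. The count was 1 without Cripto KO replicate 1 and 3 without Cripto KO replicate 3 or with quantile normalization. Klf4, a factor that IRF8 induces in monocytes, was 514, 556 and 524 in Control against 433, 440.4 and 406 in Cripto KO samples (log2 fold change 0.32, limma, adjusted p = 0.235). Its adjusted p was 0.0257 with DESeq2 and up to 0.752 in other alternatives. Ccl5, a chemokine, was 18.6, 11.8 and 11.3 in Control against 8.29, 10.2 and 9.82 in Cripto KO samples. For both genes the groups did not overlap, and Ccl5 had a log2 fold change of 0.53, which dropped to 0.30 without Control replicate 1.

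Of 27 other transcription factors of blood cells and MPs, 25 were in the table, and none passed at an adjusted p under 0.05. At an unadjusted p under 0.05, 6 had higher and 1 had lower values in Control, against 4.6% and 3.99% of all genes. The 1 lower gene was Bhlhe41, a repressor of the bHLH family, at 94.8, 79.1 and 95.6 in Control against 94.1, 137 and 135 in Cripto KO samples, with overlap through Cripto KO replicate 1 (log2 fold change -0.43). Zeb2, which maintains the identity of tissue MPs, was 266, 258 and 248 in Control against 214, 218 and 213 in Cripto KO samples, with a log2 fold change of 0.26 (limma, adjusted p = 0.295). Etv6, an ETS repressor, was 70.5, 64.5 and 66.6 in Control against 46.8, 58.7 and 55.8 in Cripto KO samples. Elf1, an ETS activator, was 61.2, 57.2 and 61.7 in Control against 48.9, 50.6 and 52.3 in Cripto KO samples. For all 3 the groups did not overlap, whereas those of Spi1, the ETS factor among the 9 genes, did. The count of 6 was 3 without Control replicate 3 and 3 without Cripto KO replicate 3. Over the 9 gene lists together, which hold 124 different genes of the table, 19 had an unadjusted p under 0.05, 13 with higher and 6 with lower values in Control. That is 15.3% of them, against 8.59% of all genes, and the lists were chosen with earlier results of these data known.

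Levels of different genes were compared per kilobase of exon, since longer transcripts give more reads. Cebpb was the most abundant of the 9 genes, at 1798 ± 203 (SD, n = 6) per kilobase, above 99.8% of genes. Csf1r followed at 294 ± 14.8, Cebpa at 237 ± 13.8 and Spi1 at 181 ± 6.14 (SD, n = 6 each), all above 97.5% of genes. The ranges of these 4 genes over the 6 samples did not overlap. Bach1 at 47.8 ± 5.79 and Irf8 at 42.2 ± 1.2 (SD, n = 6) overlapped, at 40.3 to 57.5 and 40.7 to 44.4, so their order is not set by these data. Maf followed at 24.7 ± 2.89 and Runx1 at 8.99 ± 0.657 (SD, n = 6). Nfix was lowest at 2.39 ± 0.308 (SD, n = 6), above 41.6% of genes. With the longest transcript in place of all exons, Spi1 (240.3) and Cebpa (238) changed places with overlapping ranges, and Irf8 (85.9) lay above Bach1 (50.3). Bach1 exceeded Bach2 by 45.5 to 60.4 times in Control and 57.5 to 78.9 times in Cripto KO samples.

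**Figure D4:**
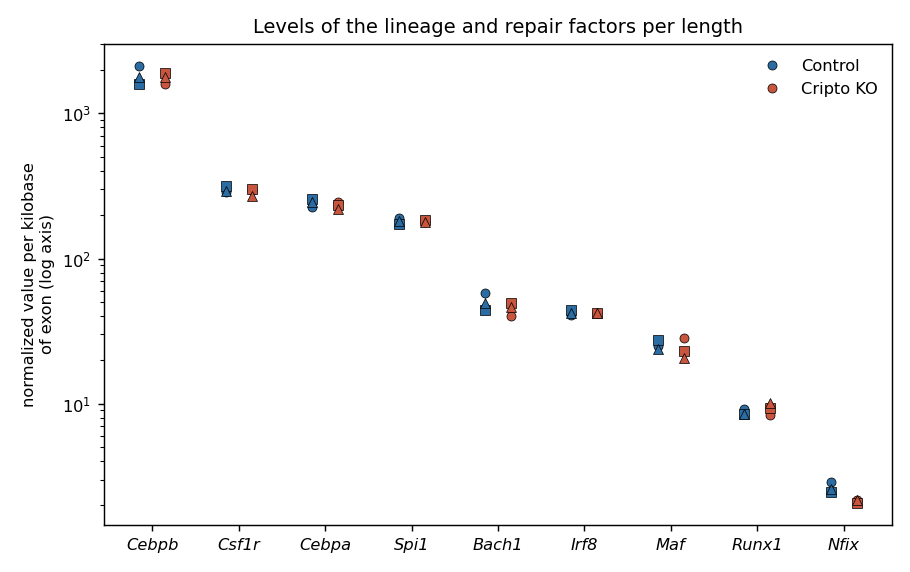
Normalized value per kilobase of exon (log axis) of the 9 genes in each sample, in order of their mean, with Control in blue, Cripto KO in red, and circles, squares and triangles for replicates 1, 2 and 3. Levels span from 2.07 for Nfix to 2127 for Cebpb, and Bach1 and Irf8 overlap.

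The 9 genes differed in which samples were high. Cebpb and Bach1 ranked the 6 samples identically, from Control replicate 1 through Cripto KO replicate 2, Control replicate 3, Cripto KO replicate 3 and Control replicate 2 to Cripto KO replicate 1. Of the 7729 other genes with a mean value of at least 10, 0.725% had the same order as Cebpb, Bach1 among them. Maf had a different order, with Cripto KO replicate 1 and Control replicate 2 highest. Cebpa also had these among its highest, with Control replicate 1 next to lowest. Over all genes with a mean value of at least 10, 24.2% were highest in Control replicate 1 and 26.7% lowest in Cripto KO replicate 1. These orders rest on 6 samples that share their normalization and are given as a description.

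**Figure D5:**
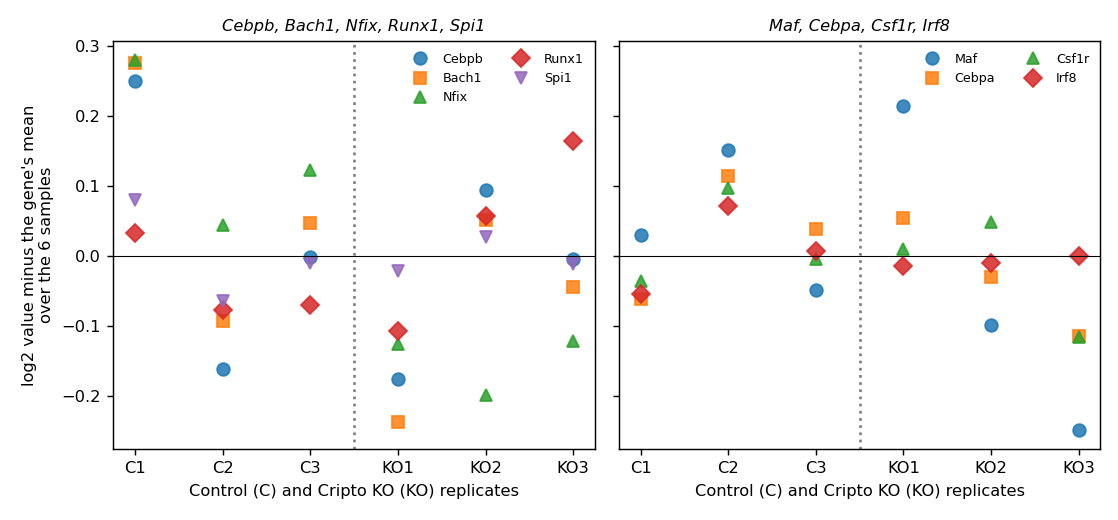
Log2 normalized value minus the gene's mean over the 6 samples, for 5 genes (left) and 4 genes (right), in Control (C1 to C3) and Cripto KO (KO1 to KO3) replicates. Cebpb and Bach1 are highest in C1 and lowest in KO1, whereas Maf is highest in KO1 and lowest in KO3.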

How the data were processed

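RNA-seq was analyzed in 3 Control and 3 Cripto KO samples. Per the submitters' processing notes and the methods of the study, the authors checked reads with FastQC, trimmed them with cutadapt (version 1.7.1), quantified them on the GRCm38 transcriptome (release 91) with RSEM (version 1.2.20) and normalized them with limma and edgeR. The deposited values are a normalized signal per gene, with 0.5 added to the reads, scaled to 1000000 of a normalized library size. Whole reads came out within 0.01 for 100% of 78048 values. Whether counting used strand is not given in the sources used here.

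Groups were compared with limma (version 3.58.1, R 4.3.3; lmFit, eBayes with a variance trend) on log2 of the deposited signal without a pseudocount, since no value was 0, over all 13008 genes, two-sided, with Benjamini-Hochberg adjustment. Alternatives were a mean value of 1 or more, pseudocounts of 0.5 and 1, quantile normalization, median centring, eBayes without a trend or robust, edgeR (version 4.0.16), DESeq2 (version 1.42.0) and voom on the recovered reads, a replicate block, and each sample left out. The limma and edgeR tests were also run on simulated counts, with results not given here. Python 3.11.15 (numpy 2.4.6, pandas 2.3.3, matplotlib 3.10.9) served for tables and figures.

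The 9 genes, the gene lists and the tests were chosen with earlier results of these data known. Named are the 9 genes, genes of the paralog and CSF1R lists, the 3 genes of each other list with the smallest p among those with a mean value of at least 1, and, for each of the 9, the gene with the most alike profile among those with a mean value of at least 10. Gclc, Txnrd1, Sirpa and Bhlhe41 were named after their values had been seen. Positions are from GENCODE mouse release 21 (GRCm38), which placed 12989 genes. Promoter sequence is from RefSeq (GRCm38.p6), with an entry for 6 of the 9 genes. Il34, Spib, Kit, Myb, Gfi1 and Tdgf1 were not analysed here. A further 3 listed genes are not reported here and were left out of the lists.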

Additional observations from a re-analysis of the deposited data

How the results depend on the processing

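All 9 genes stayed above an adjusted p of 0.05 in all 17 alternatives, and Nfix, Bach1 and Runx1 kept their direction in each. Nfix was the 1 gene with an unadjusted p under 0.05, and the count became 0 with DESeq2 and 0 to 2 when 1 sample was left out. Of the 9 genes, 1 to 3 were without overlap when 1 sample was left out, against 21.9% to 28.1% of all genes. The 3 were found without Cripto KO replicate 1, where the share of all genes was 24.3%. Small fold changes changed sign. After quantile normalization the log2 fold changes were -0.0589 for Spi1, -0.000345 for Cebpa, -0.00056 for Cebpb, -0.0428 for Irf8, -0.00164 for Irf5 and -0.0531 for Txnrd1, that of Spi1 was -0.00681 with edgeR, -0.00508 with DESeq2 and -0.00774 with voom, and that of Txnrd1 was -0.00684 with voom. When 1 sample was left out they went from -0.0351 to 0.0366 for Spi1, -0.0524 to 0.153 for Cebpb, -0.0158 to 0.0465 for Irf8, -0.0137 to 0.218 for Maf, -0.00995 to 0.0718 for Csf1r, -0.37 to 0.0883 for Ccr7, -0.164 to 0.361 for Zbtb46, -0.0464 to 0.12 for Csf1, -0.214 to 0.14 for Irf4, -0.00622 to 0.0989 for Irf5, -0.0539 to 0.0107 for Cebpd, -0.149 to 0.142 for Nfic, -0.185 to 0.192 for Txnrd1 and -0.0507 to 0.17 for Syk. The cause was not tested.

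Over all genes, 17 had an adjusted p under 0.05. The number was 6 with quantile normalization, 5 without a variance trend, 31 with robust eBayes, 71 with DESeq2, 9 with voom weights, 2 with the replicate block, and 5 to 31 when 1 sample was left out, with 31 without Control replicate 1. Genes with an unadjusted p under 0.05 numbered 1117, and 741 to 1360.0 when 1 sample was left out. Of the listed genes, 0 passed, 1 with robust eBayes and 4 with DESeq2. Replicate numbers did not pair the samples: deviations of same-numbered samples had correlations of -0.21, -0.00522 and -2.46e-05, and the replicate block gave Nfix an adjusted p of 0.684.

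Levels per kilobase moved with the longest transcript in place of all exons, from 181 to 240.3 for Spi1, 42.2 to 85.9 for Irf8, 24.7 to 32.0 for Maf, 8.99 to 18.4 for Runx1, 2.39 to 3.20 for Nfix and 294 to 361 for Csf1r. The 95% intervals of 8 of the 9 fold changes include 0, which does not show that the groups were equal. Depth is lowest for Nfix, with 214 to 287 reads per sample.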

Other observations

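For each of the 9 genes, the gene with the most alike profile was taken as that with the smallest root mean square difference of log2 values, each centred on its mean over the 6 samples, among 7721 genes with a mean value of at least 10. For Spi1 it was Itpk1 (difference 0.02), for Cebpa Twf2 (0.01), for Cebpb Rusc2 (0.02), for Irf8 Bcap31 (0.01), for Maf Gatd1 (0.03) and for Runx1 Smg1 (0.02). For Nfix it was Kat8, which encodes a histone acetyltransferase, at 14.7, 11.7 and 12.7 in Control against 10.8, 10.5 and 10.9 in Cripto KO samples (difference 0.03, against a median of 0.19 over genes). For Csf1r it was Ggh (0.02). For Bach1 it was Foxo1, which encodes a forkhead factor, at 22.5, 17.2 and 18.2 in Control against 15.6, 18.9 and 18.0 in Cripto KO samples (0.03). The differences are given without a test.

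Among the remaining genes of the marker lists, Siglech, Ccr7 and Zbtb46 of the dendritic cell list, Ccr2, Plac8 and Ly6c2 of the Ly6C-high monocyte list, S100a8 of the neutrophil list, and Kdr, Cdh5 and Pecam1 of the endothelial list had adjusted p-values of 0.67 or more (limma), with log2 fold changes of 0.53, -0.22, 0.16, -0.30, 0.42, 0.31, -0.52, 0.39, -0.19 and 0.13.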
